A study of Mus musculus with 21 samples.

Results

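The skin of newborn mice carrying an activating Jak1 allele was compared with that of wild-type (WT) newborns. The 7 skin libraries, 2 from knock-in (KI) pups and 5 from WT pups, were all those titled as skin among the 21 libraries of the series, which also holds brain and liver of the same animals. All pups were C57BL/6 mice by the labels (C57BL/6J in the study's methods) taken on the day of birth (P0). The KI pups were heterozygous, Jak1 H595D/+;I596I/+;Y597Y/+, that is, 1 allele carried a histidine-to-aspartate change in the pseudokinase domain together with silent changes in the neighbouring codons that prevented renewed cutting by Cas9. GEO lists them as Jak1 KI +/- and the controls as wild type. KI pups were sired by a mosaic male, since heterozygotes died young, and the WT pups carried no edited allele. The body site from which the skin was taken, the sexes and the litters are not given in the sources used here, and n is 2 for KI and 5 for WT throughout. Of 24391 genes in the count tables, 16163 passed a filter on low counts and were tested. Calls were made at an adjusted p under 0.1 (Benjamini-Hochberg) in edgeR's quasi-likelihood test, and with no word on litters the p-values measure only the spread between these samples.

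JAK1 is a tyrosine kinase bound to the receptors of interferons, of the interleukin-6 family and of many other cytokines. Once a cytokine binds, JAK1 and its partner kinases phosphorylate STAT transcription factors, which enter the nucleus and switch on interferon-stimulated genes, acute-phase genes and the SOCS genes that damp the signal. In skin this pathway acts in keratinocytes, which build the cornified barrier layer by layer, and equally in the vessels and resident immune cells of the dermis.

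The edited codons lie in exon 13 of the 25 exons of Jak1, on the minus strand of chromosome 4 in the mm9 assembly. The WT stretch is shown because it is the only designed difference between the groups. It spans chr4:100837141-100837203, is written 5′ to 3′ on the coding strand from the reference genome, and has the 3 edited codons in capitals.
Jak1 exon 13: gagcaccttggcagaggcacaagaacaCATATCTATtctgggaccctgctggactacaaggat

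Jak1 was counted at 212 and 205 CPM (counts per 1e+06 counts, with TMM-scaled library sizes) in KI 1 and KI 2, and at 175, 178, 195, 198 and 171 CPM in WT 1 to WT 5. Both KI libraries were above all WT libraries by a small margin, and the log2 fold change of 0.18 (SE 0.102) was not called (adjusted p = 0.999 by edgeR). The edit is a base substitution, so the gene's count does not check the genotype.

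The skin libraries held 28637568 to 34900383 counts on genes. They differed widely in tissue make-up within each genotype. The score of spinous keratinocyte genes, their mean log2 CPM, was 7.82 in KI 1 and 4.27 in KI 2, and it was 7.46, 6.52, 6.75, 8.05 and 5.15 in WT 1 to WT 5. KI 2 and WT 5 thus stood apart from the other 5 libraries, and the score of granular layer genes divided them in the same way, with 2.66 in KI 2 and 2.17 in WT 5 against 5.59 to 6.86 elsewhere. The dermal matrix score varied far less, from 10.16 to 10.53 over all 7 libraries. WT 3 had the highest brown fat score, with Ucp1, the heat-producing uncoupling protein, at 179 CPM against 0 to 0.929 CPM in the other WT libraries. Summed Y-linked transcripts were 174 CPM in KI 2 and 162 CPM in WT 3 and under 2 CPM in the rest. By this measure KI 2 and WT 3 came from males and the rest from females. KI 2 thus differed from KI 1 in sex as well as in epidermal content. Because these are bulk samples, fewer cells of a type and less RNA per cell cannot be told apart.

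**Figure D1:**
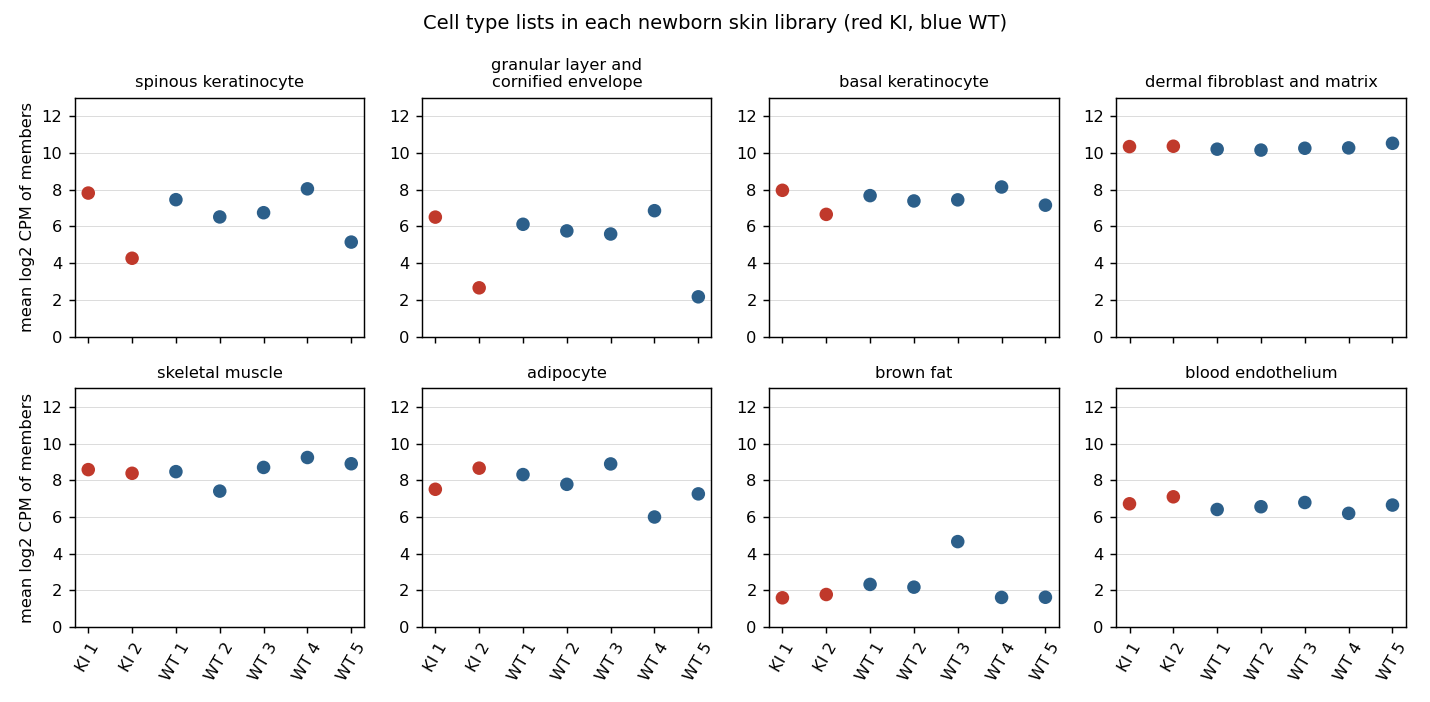
Mean log2 CPM over the tested members of 8 cell type lists in each skin library, with 1 point per library, red for KI and blue for WT. KI 2 and WT 5 lie low in the spinous and granular panels (4.27 and 5.15, 2.66 and 2.17), WT 3 lies high for brown fat (4.66), and the dermal fibroblast points lie between 10.16 and 10.53.

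Against this variation 4 genes rose in KI skin and none fell, which is 0.0247% of the genes tested in the upward direction and 0% in the downward direction. Genes with an unadjusted p under 0.05 numbered 467 on the high side (2.89%) and 271 on the low side (1.68%). Each called gene was a member of a list followed here, Selp and Lrg1 of activated endothelium, Cebpd and Lrg1 of interleukin-6 and STAT3 targets, and Oasl1 of the interferon response. The lists were chosen with earlier results of these data known, so this membership is no separate support for them.

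Selp encodes P-selectin, the adhesion molecule that activated endothelium and platelets display to rolling leukocytes, and it lies at chr1:166045395-166080157 (mm9). It was at 16.0 and 18.1 CPM in KI 1 and KI 2 and at 5.26, 5.87, 4.71, 4.39 and 4.65 CPM in WT 1 to WT 5. The groups were far apart and each was tight, and the log2 fold change was 1.78 (SE 0.178, adjusted p = 0.0899 by edgeR). Cebpd, a transcription factor gene of the acute-phase response at chr16:15887379-15888559, was at 93.2 and 91.4 CPM in KI skin and at 40.5, 45.2, 33.5, 42.3 and 37.5 CPM in WT skin. The KI libraries were nearly equal, and the log2 fold change was 1.21 (SE 0.123, adjusted p = 0.0899 by edgeR). Lrg1, at chr17:56259103-56261369, encodes a secreted leucine-rich glycoprotein made by endothelium and liver in inflammation. It showed the largest fold change of the called genes, with 34.0 and 47.1 CPM in KI against 6.40, 6.28, 11.2, 5.63 and 6.73 CPM in WT (log2 fold change 2.48, SE 0.267, adjusted p = 0.0899 by edgeR). Oasl1, an interferon-induced member of the oligoadenylate synthetase family at chr5:115373249-115387924, was at 12.7 and 18.1 CPM in KI and at 3.85, 3.88, 4.08, 3.18 and 4.76 CPM in WT (log2 fold change 1.96, SE 0.219, adjusted p = 0.0899 by edgeR). Its reads may be shared with the related gene Oasl2. In each of the 4 genes the lowest KI value was above the highest WT value, as was the case for 4.91% of all genes tested.

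**Figure D2:**
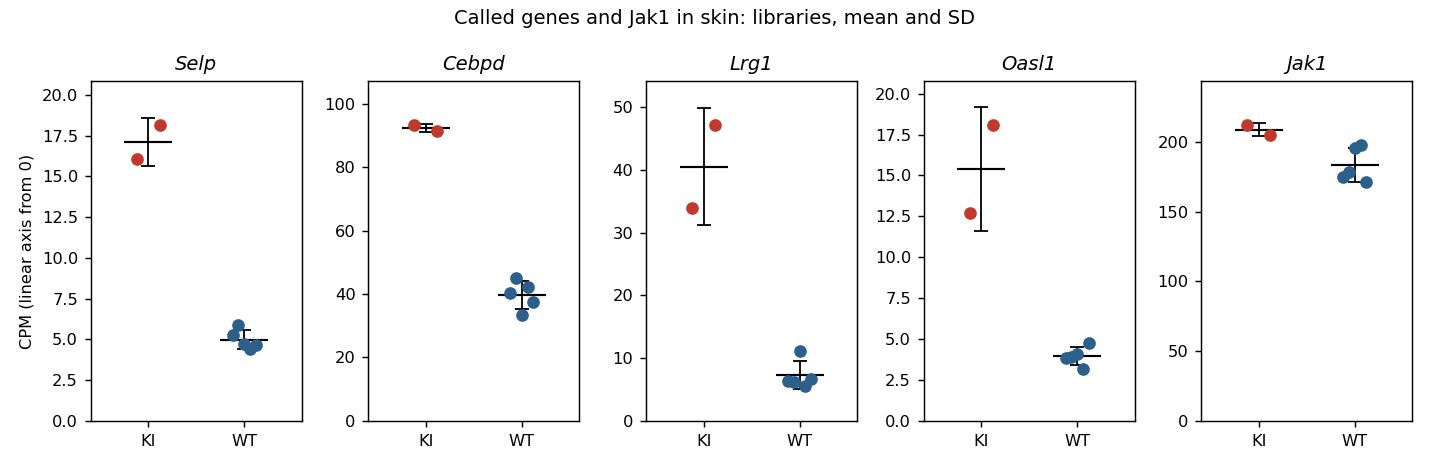
CPM of the 4 called genes and of Jak1 in KI and WT skin on linear axes from 0, with 1 point per library, a bar at the mean and whiskers of 1 SD. In Selp, Cebpd, Lrg1 and Oasl1 the KI and WT points are separated by a wide gap, and in Jak1 by a narrow one (205 and 212 against at most 198 CPM).

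These calls sat close to the threshold. Leaving out any single library left none of the 4 called, except that Lrg1 stayed called without WT 3. The log2 fold changes themselves held between 1.62 and 1.91 for Selp, 1.11 and 1.29 for Cebpd, 2.20 and 2.75 for Lrg1, and 1.68 and 2.24 for Oasl1 over all alternatives, KI 2 and WT 5 left out included. DESeq2 on the same counts called 96 genes higher, all 4 among them, and 11 lower, which is 0.634% and 0.0727% of the 15135 genes to which it gave an adjusted p.

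Apart from single genes, 34 lists of marker and pathway genes were followed. The median log2 fold change over all genes tested was -0.03. Members at an unadjusted p under 0.05 were numerous in the interferon, macrophage, endothelial and STAT3 lists on the high side and in the cholesterol list on the low side, and they were absent from most lists of structural skin cells. Counts of such members in every list stand beside shares of 2.89% higher and 1.68% lower over all genes tested.

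**Figure D3:**
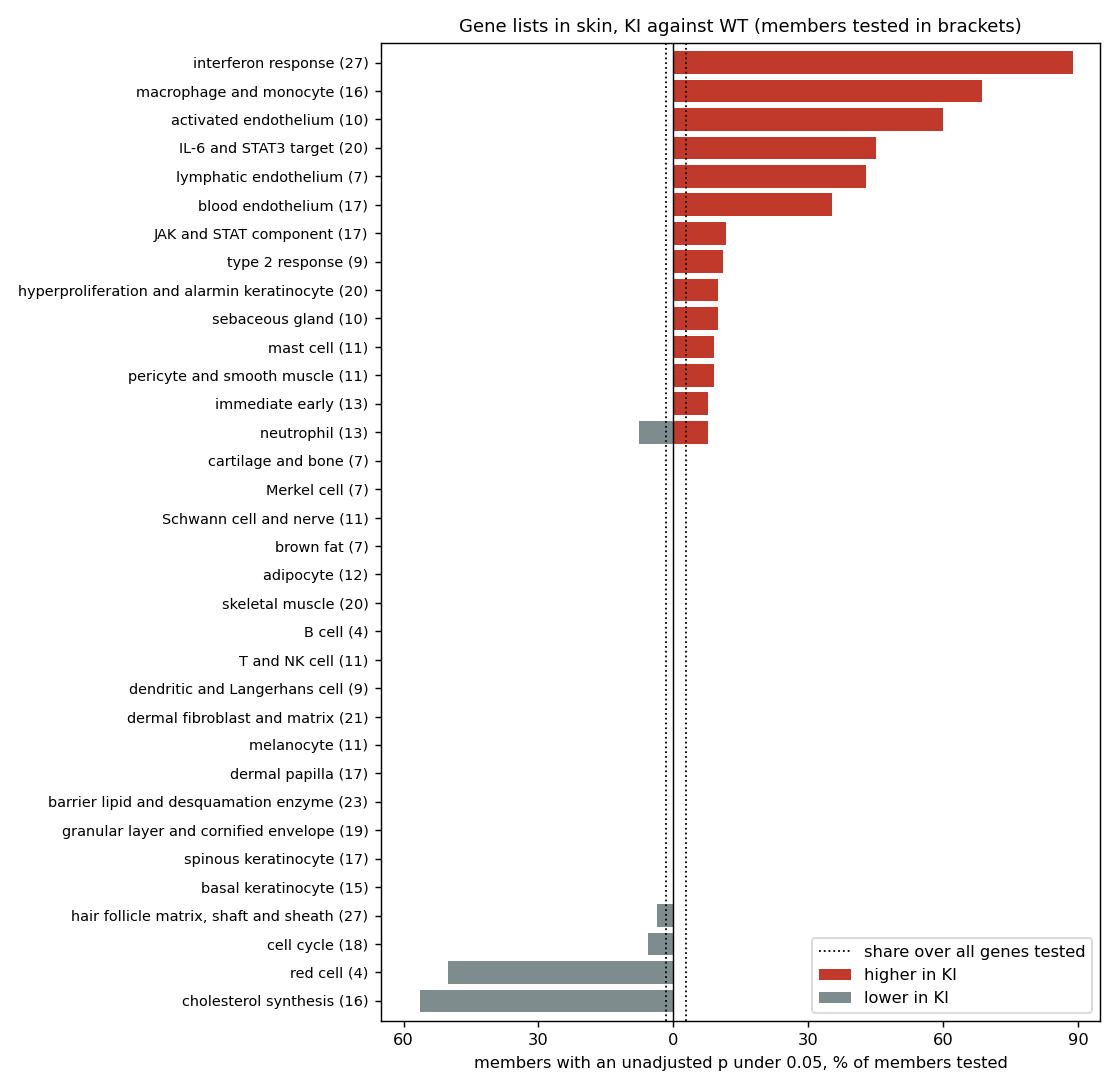
Share of the tested members of each list with an unadjusted p under 0.05, higher in KI to the right in red and lower in KI to the left in grey, with dotted lines at the shares over all genes tested (2.89% and 1.68%). The longest red bars belong to interferon response, macrophage and activated endothelium genes, and the longest grey bar to cholesterol synthesis genes.

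Interferon-stimulated genes were higher in KI skin as a group. Of 27 genes, all tested, 1 was called (Oasl1). An unadjusted p under 0.05 was reached by 24, all of them higher, against 2.89% of all genes. Both KI libraries were above all WT libraries for 23, against 4.91% of all genes. The list's median log2 fold change was 1.26, and all 27 values were positive. Irf7, the transcription factor that amplifies the type I interferon response, was at 51.8 and 83.2 CPM in KI 1 and KI 2 and at 23.1, 21.8, 27.2, 18.3 and 32.7 CPM in WT 1 to WT 5, with no overlap (log2 fold change 1.46, SE 0.242, adjusted p = 0.331 by edgeR). Ifit3, one of the antiviral Ifit genes, which may share reads with its near copy Ifit3b, was at 22.0 and 31.0 CPM in KI and between 4.51 and 9.83 CPM in WT. Tap1, the peptide pump that loads MHC class I molecules, was at 57.7 and 64.2 CPM in KI and at 34.7, 32.3, 32.7, 30.2 and 38.9 CPM in WT, a log2 fold change of 0.85 with a tight spread (SE 0.12). Bst2, the virus-tethering protein tetherin, was at 97.2 and 150.5 CPM in KI and from 51.8 to 84.8 CPM in WT. KI 2 was the higher of the KI libraries for most members. Without KI 2 the median was 0.85, and 12 members had an unadjusted p under 0.05, where 1.4% of all genes were higher at that level. DESeq2 called 14 members, all higher.

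Promoters of this list often carried the interferon-stimulated response element, the DNA motif bound by the STAT complex that type I interferon activates. The list was made up of interferon-stimulated genes, so this share describes the list and does not bear on KI skin. The search of whole lists was added to a search planned for the called genes alone. The motif searched was GAAA, any 2 bases and GAAA, on both strands, in windows from 250 bases before to 50 bases after the start (RefSeq promoters, GRCm38.p6). It was found for 12 of the 22 members with a window (54.5%), against 3.44% of all 32851 windows. Stretches of 4 genes with matches are shown as examples, 5′ to 3′ on the strand of the gene, with matches on either strand in capitals and 20 bases on each side.
Isg15, chr4:156200855-156200916, minus strand: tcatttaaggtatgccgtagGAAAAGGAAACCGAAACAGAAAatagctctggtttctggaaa
Ifit1, chr19:34640765-34640833, plus strand: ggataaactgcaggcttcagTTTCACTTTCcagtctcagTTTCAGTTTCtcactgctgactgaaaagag
Ifit3, chr19:34583353-34583436, plus strand: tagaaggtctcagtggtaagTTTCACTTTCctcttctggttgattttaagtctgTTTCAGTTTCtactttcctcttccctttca
Rsad2, chr12:26456543-26456592, minus strand: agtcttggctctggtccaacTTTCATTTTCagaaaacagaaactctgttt
Isg15 held 3 overlapping matches, Ifit1 and Ifit3 held 2 each, and Rsad2 held 1. In KI 1 and KI 2 these genes were at 22.6 and 39.0 CPM (Isg15), 19.2 and 23.5 CPM (Ifit1), 22.0 and 31.0 CPM (Ifit3) and 37.7 and 35.6 CPM (Rsad2). Their highest WT values were 17.4, 9.55, 9.83 and 16.1 CPM. The windows of the called genes Selp, Lrg1 and Oasl1 held neither this motif nor the STAT site TTCNNNGAA, which 8.3% of all windows held, and Cebpd had no entry among the windows. The STAT site was found for 6 of the 22 interferon members (27.3%). In the list of interleukin-6 and STAT3 targets it was found for 2 of 17 members with a window (11.8%). The interferon motif was also found for 2 of those 17 (11.8%). A match is a description of letters and not a bound site.

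Genes induced by interleukin-6 and STAT3 were the next group. Of 20 genes, all tested, 2 were called (Cebpd and Lrg1), and the median log2 fold change was 0.51. An unadjusted p under 0.05 was reached by 9, all higher, against 2.89% of all genes. DESeq2 called 3. Without KI 1 there were 5 members at that level and the median was 0.56. Socs3, the feedback inhibitor of this receptor family, was at 128 and 56.6 CPM in KI 1 and KI 2 and at 45.8, 60.7, 22.0, 26.6 and 22.4 CPM in WT 1 to WT 5. KI 2 therefore lay below WT 2, and the log2 fold change of 1.38 (SE 0.455) was not called (adjusted p = 0.944 by edgeR). Osmr, the oncostatin M receptor subunit, was at 25.6 and 31.7 CPM in KI and at 18.0, 17.2, 18.3, 20.5 and 16.9 CPM in WT, with no overlap (log2 fold change 0.66, SE 0.138). Il4ra, the shared receptor chain for interleukins 4 and 13, was at 65.5 and 87.3 CPM in KI against 44.6 to 60.6 CPM in WT. Il6 itself was low, at 2.49 and 1.12 CPM in KI and 0.0894 to 0.865 CPM in WT. Other targets of the same pathway overlapped between the groups. Socs1 was at 12.4 and 14.5 CPM in KI and 9.43 to 17.4 CPM in WT, Cish at 37.1 and 49.4 against 27.5 to 74.9 CPM, and Lcn2 at 5.23 and 5.68 against 2.50 to 28.8 CPM.

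The components of JAK and STAT signalling differed by a small amount. Of 17 tested, 2 had an unadjusted p under 0.05 (Stat3 and Socs3), against 2.89% of all genes higher at that level. The median log2 fold change was 0.23, with 13 of 17 values positive, and it was 0.10 without KI 2. The score of this list was 5.45 and 5.55 in KI 1 and KI 2 and 4.97 to 5.29 in WT. Stat3 was at 222 and 189 CPM in KI 1 and KI 2 and at 143, 128, 149.5, 192 and 143 CPM in WT 1 to WT 5, so that KI 2 was just below WT 4. Immediate early genes, which respond quickly to many stimuli, varied strongly among all libraries. Fos, for example, was at 618 and 258 CPM in KI and at 414, 428, 76.9, 70.0 and 19.0 CPM in WT. The immediate early list had a median log2 fold change of 0.94 with 1 of 13 members at an unadjusted p under 0.05, against 2.89% of all genes higher. Its score was 7.73 and 6.73 in KI 1 and KI 2 and 4.87 to 7.01 in WT. Socs3, Junb and Cebpb of the STAT3 list were highest in KI 1, as was this score, and the part of the immediate early response in their values was not tested.

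Genes of activated endothelium were higher in KI skin. Of 12 such genes 10 were tested, 2 were called (Selp and Lrg1) and 5 were called by DESeq2 (with Ackr1, Sele and Angpt2). An unadjusted p under 0.05 was reached by 6, against 2.89% of all genes higher at that level. Both KI libraries were above all WT libraries for 7, against 4.91% of all genes. The median log2 fold change was 0.69. Sele, which encodes E-selectin, was at 17.3 and 18.5 CPM in KI 1 and KI 2 and at 2.35, 7.18, 1.13, 3.09 and 0.846 CPM in WT 1 to WT 5, a log2 fold change of 2.61 (SE 0.686) that was called by DESeq2 and not by edgeR. Ackr1, the chemokine-binding receptor of venules, was at 12.7 and 19.95 CPM in KI and at 5.94, 6.70, 7.63, 5.89 and 8.18 CPM in WT. Vcam1, an adhesion molecule often induced with the selectins, overlapped fully, at 53.9 and 60.6 CPM against 29.5 to 61.4 CPM. Without KI 2 the median of this list was 0.48.

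General endothelial genes differed less and depended on KI 2. Of 17 tested, 6 had an unadjusted p under 0.05, against 2.89% of all genes higher at that level. All 17 log2 fold changes were positive, and the median was 0.39. Vwf, the clotting protein stored by endothelial cells, was at 140 and 181 CPM in KI 1 and KI 2 and at 65.6, 80.3, 84.2, 68.2 and 116 CPM in WT 1 to WT 5 (log2 fold change 0.96, SE 0.22). Pecam1, the adhesion molecule at endothelial junctions, was at 357 and 436 CPM in KI and 253 to 355 CPM in WT, while Cdh5, the endothelial cadherin, overlapped at 298 and 438 against 221 to 433 CPM. Without KI 2 the median of this list was 0.08. KI 2 had the lower epidermal score of the KI libraries and was the one with Y-linked transcripts (174 CPM). In a fit with the epidermal score as a covariate the median was 0.31. There 5 of 17 members were higher with an unadjusted p under 0.05, against 3.29% of all genes. Whether either trait of KI 2 accounts for its values was not tested. Lymphatic genes gave 3 of 7 tested at that level with all 7 libraries, against 2.89% of all genes, with a median of 0.46. Among them was Lyve1, a hyaluronan receptor, at 138 and 185 CPM in KI and 97.5 to 133 CPM in WT. Without KI 2 none of the 7 lymphatic genes reached it and their median was 0.28, and without KI 1 there were 5. Of 11 mural cell genes (median 0.08) Rgs5 alone reached it, at 75.3 and 84.9 CPM against 53.9 to 72.4 CPM, though not without KI 2, and contractile genes such as Acta2 overlapped (395 and 441 against 329 to 699 CPM).

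Macrophage genes were higher in KI skin by a small amount. Of 16 tested none was called by edgeR and 4 were called higher by DESeq2 (Adgre1, C1qb, C1qc and Cd68). Of the 16, 11 had an unadjusted p under 0.05, all higher, against 2.89% of all genes. Both KI libraries were above all WT libraries for 12, against 4.91% of all genes. The median log2 fold change was 0.63. Adgre1, which encodes the macrophage antigen F4/80, was at 49.7 and 58.9 CPM in KI 1 and KI 2 and at 40.7, 27.1, 34.6, 31.1 and 26.2 CPM in WT 1 to WT 5. The complement gene C1qb was at 138 and 207 CPM in KI and 100.5 to 121 CPM in WT, and the mannose receptor gene Mrc1 was at 244 and 315 CPM against 168 to 241 CPM. Clec4d, a lectin of inflammatory monocytes, had the largest fold change of the list (1.80, SE 0.412) at a low level, 1.86 and 2.24 CPM in KI and 0.387 to 0.865 CPM in WT. Ccr2 and Cx3cr1, receptors of circulating monocytes, overlapped. The macrophage score was 4.97 in KI 1 and 5.47 in KI 2, against 4.34 to 4.81 in WT. Without KI 2 the median was 0.37 with 13 of 16 values positive, against 0.84 with all 16 positive without KI 1. The size of this difference thus depended on KI 2. Ptprc, which encodes the CD45 antigen of all leukocytes, was at 20.99 and 25.6 CPM in KI and at 20.8, 17.3, 14.8, 14.6 and 14.7 CPM in WT.

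Genes of the other immune cells mostly overlapped between the groups, though neutrophil genes did so only in part. Among neutrophil genes, Cxcr2 and Csf3r, receptors of mature neutrophils, were at 1.10 to 1.47 and 3.47 to 4.91 CPM in KI and at most 0.449 and 2.71 CPM in WT, whereas the granule genes Ltf, Camp and Ngp had negative log2 fold changes (-1.39, -1.17 and -1.05). Of 13 tested, Cxcr2 and Ltf were the members with an unadjusted p under 0.05. Both KI libraries were above all WT libraries for 5 and below them for 1, against 4.91% and 4.84% of all genes. The median log2 fold change was 0.50, and 0.20 without KI 2. The neutrophil score was 0.43 and 0.88 in KI 1 and KI 2 and -1.01 to 0.76 in WT. Cpa3, a protease gene of mast cells, was at 983 and 1499 CPM in KI and 959 to 1647 CPM in WT. The median of the mast cell list was 0.23, and it was -0.05 without KI 2 and 0.55 without KI 1. Of 11 mast cell genes 1 had an unadjusted p under 0.05 (Tpsab1), against 2.89% of all genes higher at that level. The B cell list gave none of 4 tested, and the T and NK cell list none of 11, with Cd4 at 6.30 and 5.19 CPM in KI and 1.67 to 4.77 CPM in WT and Cd3e under 1 CPM in all 7 libraries. Antigen-presentation genes of dendritic cells gave none of 9, although Cd74 was slightly above WT in both KI libraries (51.5 and 50.6 against 31.1 to 47.7 CPM). Among genes of the type 2 response 1 of 9 tested reached it, Il4ra, and Tslp, the epithelial cytokine of atopic skin, was at 1.32 and 1.86 CPM against 1.00 to 2.03 CPM.

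With all 7 libraries no layer of the epidermis differed between the genotypes beyond the spread between libraries. None of the 15 basal, 17 spinous, 19 granular and cornified-envelope, and 23 barrier-enzyme genes tested had an unadjusted p under 0.05, and their median log2 fold changes were -0.03, -0.08, -0.31 and -0.11. Krt5, the keratin of the basal layer, was at 1777 and 443 CPM in KI 1 and KI 2 and at 1605, 1033, 1222, 2551 and 700 CPM in WT 1 to WT 5. Krt1, its suprabasal counterpart, was at 5027 and 102 CPM in KI and at 3107, 901, 1524, 5847 and 185 CPM in WT. Lor, which encodes the envelope protein loricrin, was at 2064 and 69.1 CPM in KI and at 1369, 655, 1264, 3064 and 91.4 CPM in WT, and Ivl, the involucrin gene, at 39.8 and 1.09 against 3.24 to 75.6 CPM. In each of these genes KI 1 lay with the richest WT libraries and KI 2 with or below WT 5. These counts of 0 depended on KI 1. Without it 5 of 15 basal, 9 of 17 spinous, 5 of 20 granular and 12 of 23 barrier genes were lower with an unadjusted p under 0.05, with medians of -1.03, -2.83, -3.38 and -2.46, while WT 5 was the only WT library of like epidermal content. With both KI 2 and WT 5 left out the spinous list had one of 0.53. The standard error of the log2 fold change was 1.39 for Krt1 and 1.32 for Lor, so that a KI effect of a few fold on these genes was not detectable here. Flg was not analysed here and Krt2 was under the filter.

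Some keratins of stressed and hyperproliferative epidermis stood higher in KI 1. Krt6b, at chr15:101506465-101510720, was at 236 CPM in KI 1 and 8.84 CPM in KI 2, and at 3.85, 7.72, 2.15, 5.42 and 1.62 CPM in WT 1 to WT 5. It had the largest positive log2 fold change of the genes named by size (4.88, SE 0.975, adjusted p = 0.52 by edgeR). This size came from KI 1, since without KI 1 it was 1.13. Krt6b was called by DESeq2 (adjusted p = 0.00951 by DESeq2). Krt16, the usual partner of keratin 6, was at 97.1 and 8.63 CPM in KI and at 9.24, 8.14, 7.48, 28.1 and 3.49 CPM in WT, and without KI 1 its log2 fold change turned from 2.23 to -0.34. Set against the keratinocytes in each library, by a ratio chosen after the values were seen, Krt6b gave 13.3 and 2.00 counts per 100 Krt5 counts in KI 1 and KI 2 and 0.176 to 0.748 in WT. Krt16 gave 5.47 and 1.95 against 0.498 to 1.10 on the same scale, so both KI libraries were above all WT libraries in both ratios. Krt6a, which shares long stretches of sequence with Krt6b so that reads may be divided between them, gave 1.56 and 0.467 against 0.156 to 4.44, with WT 2 the highest library. Krt17 overlapped on this scale, at 28.8 and 39.8 against 25.5 to 35.1. The wider list of hyperproliferation and alarmin genes had 20 of 25 members tested, a median log2 fold change of 0.04, and no other member at an unadjusted p under 0.05. S100a8 and S100a9, the alarmins of inflamed epidermis, were at 4.38 and 5.15 CPM and at 6.65 and 10.8 CPM in KI, within the WT ranges of 3.04 to 7.47 and 3.30 to 13.5 CPM.

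**Figure D4:**
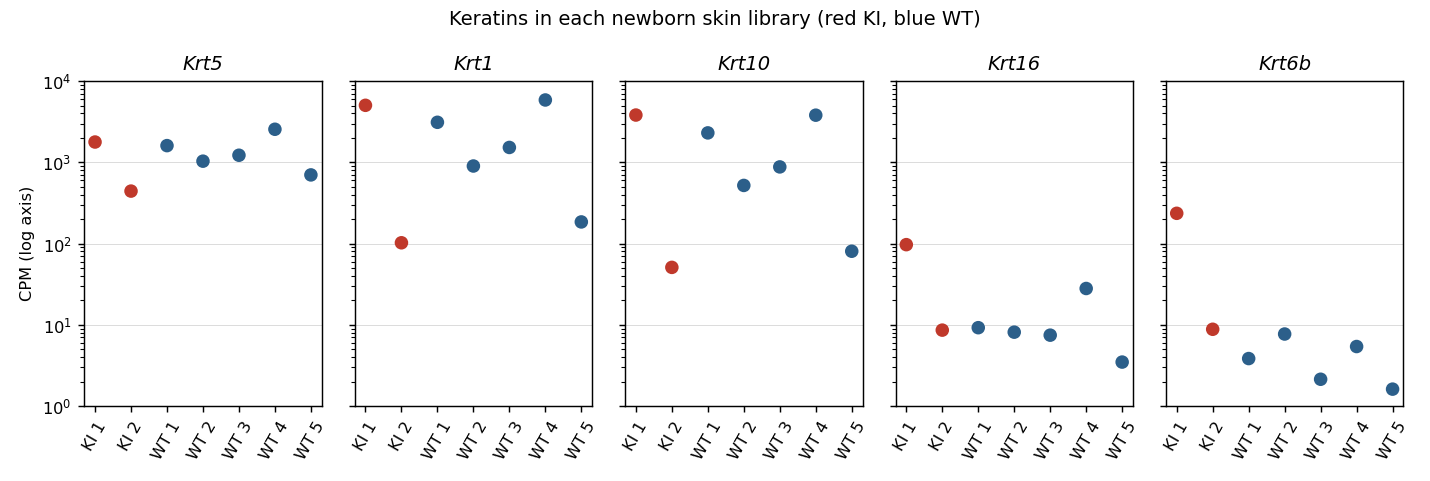
CPM of 5 keratin genes in each skin library on a log axis, with red points for KI and blue points for WT. KI 2 and WT 5 are the lowest libraries for Krt5, Krt1 and Krt10, while Krt6b is at 236 CPM in KI 1, 8.84 CPM in KI 2 and at most 7.72 CPM in WT.

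Hair follicle genes overlapped between the genotypes, with a score of 4.68 in KI 1, 2.93 in KI 2 and 2.84 to 4.97 in WT. Of 27 follicle genes tested, 1 had an unadjusted p under 0.05, against 1.68% of all genes lower at that level. This was Trps1, a zinc-finger regulator of follicle growth, which was lower in KI at 119 and 107 CPM against 149, 129, 134, 128 and 136 CPM in WT (log2 fold change -0.26, SE 0.103). Shh, the growth signal of the hair bud, was at 38.9 and 17.3 CPM in KI and 14.2 to 47.8 CPM in WT, and Krt71, a keratin of the inner root sheath, at 94.7 and 9.15 against 8.11 to 94.7 CPM. WT 2 had as little of Krt71 (8.11 CPM) as KI 2 and WT 5, although its spinous score (6.52) was above theirs (4.27 and 5.15). None of the 17 dermal papilla genes reached that level (median -0.01), with Vcan at 608 and 615 against 497 to 711 CPM. Melanocyte genes gave none of 11, and Dct, an enzyme of melanin synthesis, was at 164 and 22.1 against 25.3 to 215 CPM. Of 10 sebaceous gland genes 1 reached it, Mc5r, a melanocortin receptor of sebocytes, at 1.77 and 2.31 CPM in KI against 0.670 to 1.502 CPM in WT.

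No difference beyond the spread between libraries was seen in genes of dermis, muscle, fat and nerve. Of 21 fibroblast and matrix genes none had an unadjusted p under 0.05, and the median log2 fold change was 0.07. Col1a1 was at 23930 and 27570 CPM in KI and 18090 to 30820 CPM in WT, and Lum, the small proteoglycan lumican, was just below WT in both KI libraries (859 and 814 against 874 to 1134 CPM). None of 20 skeletal muscle genes (median -0.16) and none of 12 adipocyte genes (median 0.29) reached that level. Acta1, the actin of skeletal muscle, was at 6427 and 4743 CPM in KI and 2154 to 9932 CPM in WT. Adipoq, the adipocyte hormone gene, was at 428 and 1050 CPM in KI and at 826, 591, 1104, 136 and 382 CPM in WT, so that the WT libraries alone spanned more than the KI libraries. The brown fat (7 tested, median -0.52), Schwann cell (11, 0.15), Merkel cell (7, -0.55) and cartilage (7, 0.06) lists likewise had no member at an unadjusted p under 0.05.

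On the low side were the cholesterol synthesis enzymes and the genes regulated with them. None was called by edgeR, and 9 of 16 tested had an unadjusted p under 0.05, all lower in KI, against 1.68% of all genes. All 16 log2 fold changes were negative, with a median of -0.48, and 7 members had both KI libraries below all WT libraries, against 4.84% of all genes. Sqle, the squalene epoxidase of the pathway, was at 52.8 and 59.3 CPM in KI 1 and KI 2 and at 91.9, 84.1, 92.1, 94.7 and 77.1 CPM in WT 1 to WT 5. Its log2 fold change was -0.65 (SE 0.118, adjusted p = 0.442 by edgeR), and DESeq2 called it. Fdps, the farnesyl diphosphate synthase upstream of it, was at 10.9 and 11.99 CPM in KI and at 21.1, 15.8, 18.7, 20.2 and 14.1 CPM in WT (log2 fold change -0.65, SE 0.197). Mvd, a decarboxylase of the mevalonate steps, was at 21.9 and 24.1 CPM against 28.0 to 41.5 CPM, and Idi1, the isomerase that follows it, at 0.725 and 0.947 against 1.27 to 2.50 CPM. In all 3 both KI libraries lay below every WT library. Insig1, the membrane protein that restrains the pathway, differed among libraries without regard to genotype (59.1 and 219 against 66.7 to 285 CPM). With KI 2 and WT 5 left out the median was -0.71. Without KI 1 the median was -0.34 and 2 of the 16 log2 fold changes were positive. The score of this list was 4.85 and 5.17 in KI 1 and KI 2 and 5.12 to 5.72 in WT. KI 2 thus lay above WT 5 (5.12) in this score.

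**Figure D5:**
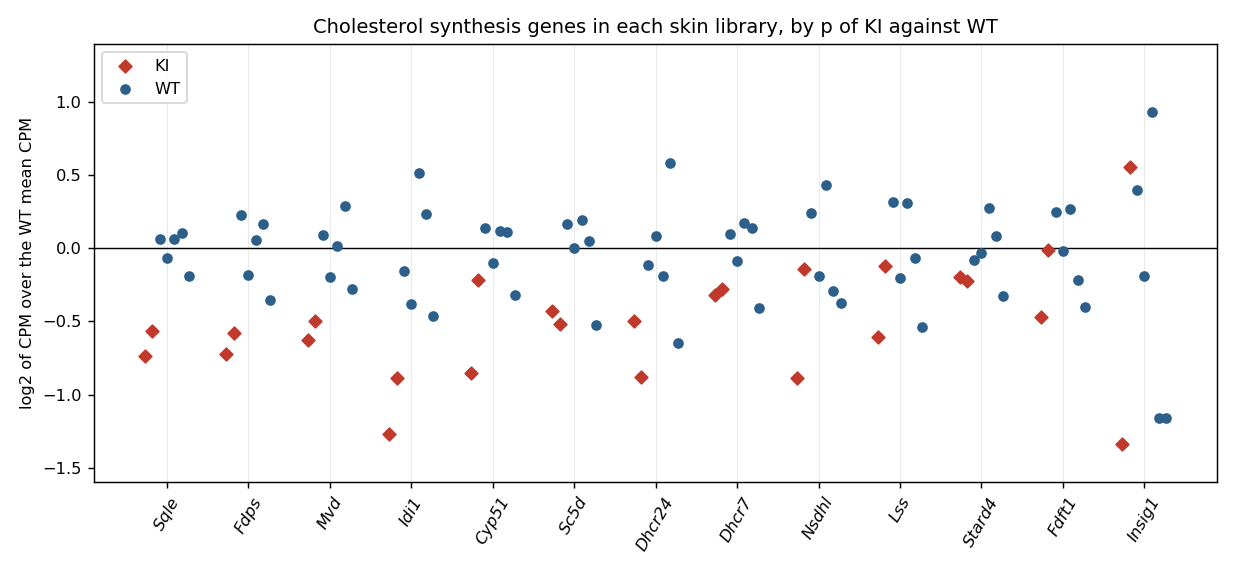
Log2 ratio of each library's CPM to the WT mean CPM for 13 of the 16 tested cholesterol synthesis genes, ordered by p, with red diamonds for the KI libraries and blue dots for the WT libraries. For the 4 genes at the left both diamonds lie below all dots, and at the right (Insig1) the groups overlap.

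Of 18 proliferation genes none was called. All had a negative log2 fold change, with a median of -0.23. Tyms alone, the thymidylate synthase of DNA replication, had an unadjusted p under 0.05, against 1.68% of all genes lower at that level. It was at 25.3 and 24.7 CPM in KI against 27.6 to 35.0 CPM in WT. Mki67 overlapped at 367 and 288 against 296 to 397 CPM. Without KI 1 or without KI 2 no member reached that level. Red cell genes had 4 of 11 members above the filter. Of these 2 were lower with an unadjusted p under 0.05, against 1.68% of all genes, and all 4 had a negative log2 fold change (median -0.88). Slc4a1, the anion exchanger of the red cell membrane, was at 1.92 and 1.44 CPM in KI and 2.25 to 3.97 CPM in WT, with no overlap, and Alas2, the first enzyme of haem synthesis in erythroid cells, was at 7.44 and 12.8 CPM in KI and 12.4 to 26.9 CPM in WT. Without KI 1 none of 5 tested reached that level, and without KI 2 there was 1.

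The 12 lower genes with the largest fold change, picked by size among genes without overlap and with an unadjusted p under 0.05, were mostly of low count, and none was called. Hoxd11, a gene of distal limb identity, was at 12.95 CPM in WT 2, at 0.0653 to 1.4 CPM in the other WT libraries, and at 0 and 0.0351 CPM in KI. Aqp5, the water channel of secretory glands, was at 17.3 CPM in WT 5 and 0.324 to 4.52 CPM in the other WT libraries, against 0.0630 and 0 CPM in KI. Sox8, a transcription factor gene expressed in glia and other crest derivatives, was the lower gene of this set with the smallest p, at 1.576 and 1.402 CPM in KI and at 2.71, 3.49, 4.86, 4.89 and 6.42 CPM in WT (log2 fold change -1.58, SE 0.396). Others of the 12 were Cckar, Il17b, Ngef, Cacna2d3, Clec2g, Sez6l, Lrrc4c and Tagln3, with log2 fold changes of -2.93 to -1.37.

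DESeq2 called 11 lower genes, named here after their values were seen. Rbmx, which encodes an RNA-binding protein, was at 49.5 and 56.6 CPM in KI and at 75.3, 72.8, 76.2, 77.1 and 78.9 CPM in WT. Hells, a chromatin remodeller of dividing cells, was at 17.8 and 15.9 against 23.6 to 25.7 CPM, and Msmo1, a further enzyme of sterol synthesis outside the list, at 40.9 and 43.0 against 54.0 to 82.9 CPM. Slc15a2, a peptide transporter gene, was at 2.62 and 4.07 CPM in KI and at 28.9, 25.6, 19.0, 2.27 and 20.3 CPM in WT, so that WT 4 was as low as KI. Birc7 was called on 2 WT libraries with reads and 5 libraries at 0. The other 6 were Sqle, Fbxl17, Sox8, Aqp5, Cbx2 and Dph2.

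Among the 12 higher genes picked in the same way were receptors and cytokines outside the lists. Tacr1, the receptor for substance P, was at 5.36 and 4.17 CPM in KI and at 0.229, 0.769, 0.268, 0.825 and 0.247 CPM in WT (log2 fold change 3.33, SE 0.559). Tnfrsf9, the costimulatory receptor 4-1BB, was at 35.1 and 30.4 CPM against 2.09 to 9.47 CPM, and Ccl7, a chemokine that draws monocytes, at 11.4 and 17.5 against 2.89 to 5.29 CPM. Fgf23, the phosphate-regulating hormone gene, was at 8.86 and 7.57 CPM in KI and 0.589 to 3.63 CPM in WT. Chil1, a chitinase-like protein gene, was at 54.8 and 14.6 against 6.02 to 10.5 CPM, and Slfn4, an interferon-induced myeloid gene, at 7.41 and 16.9 against 0.707 to 3.14 CPM. Glycam1, which encodes a ligand of L-selectin, was at 5.64 and 3.16 CPM in KI and was at 0 in WT 2, WT 4 and WT 5. None of these was called by edgeR. DESeq2 called Tacr1, Tnfrsf9, Ccl7, Fgf23, Chil1 and Slfn4 higher (adjusted p from 0.00012 to 0.0906 by DESeq2), and not Glycam1. The rest of the 12 were Krt6b, Sele, Lrg1, Oasl1 and Dnah6.

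The KI effects on the 4 called genes were set against those in liver and brain of the same mice by a test of the difference itself, with the mouse as a block. On a scale set over all 21 libraries, Selp was at 32.9 and 32.3 CPM in KI liver and 3.42 to 6.57 CPM in WT liver, and it was at or near 0 in brain. Lrg1 was at 384 and 387 CPM in KI liver and 102 to 144 CPM in WT liver. No difference of effect between skin and liver was called for these genes (adjusted p from 0.786 to 1 by edgeR). In brain Selp, Lrg1 and Oasl1 were under 1 CPM in every library, so no comparison with skin is drawn for them, and for Cebpd, at 3.30 to 8.94 CPM in brain, the difference was not called (adjusted p = 0.564 by edgeR). The log2 effect in skin minus that in liver was -1.02 for Selp (SE 0.437), 0.78 for Cebpd (SE 0.491), 0.91 for Lrg1 (SE 0.35) and 0.90 for Oasl1 (SE 0.612). Over 18062 genes the skin effect was called higher than the liver effect for 5 and lower for 12.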

How the data were processed

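RNA was extracted from P0 tissue and sequenced as paired ends after TruSeq RNA v2 preparation. The study reports lower RNA integrity numbers for the skin samples than for the liver samples, without values for single samples. Per the labels and the study's methods, the authors aligned reads to mm9 with TopHat2, and the deposited values are raw read counts per gene from HTSeq, with no normalization (versions are not given in the sources used here). Rows that name no gene were dropped, which left 82% to 85.6% of the uniquely aligned reads of each skin library. No per-sample column was left unused (0). KI (2) and WT (5) skin were compared with edgeR 4.0.16 (R 4.3.3): filterByExpr, TMM, quasi-likelihood F test, two-sided, prior count 2 for log2 values. DESeq2 1.42.0, size factors, no filter, a replicate block, all 21 libraries together, a Y-linked covariate, a stricter level and leaving out each library were the alternatives. The steps were tested on simulated data. Promoter windows were RefSeq's, and Python 3.11.15, pandas 2.3.3 and matplotlib 3.10.9 drew the plots. Members and lists were chosen with earlier results of these data known. Named genes were all called genes, the 12 largest fold changes in each direction (mean of at least 1 CPM, unadjusted p under 0.05, no overlap), of each list the 2 highest and the 2 with the smallest p, Jak1, and fixed defining genes. Other genes were named after their values were seen. Some genes that enter the counts are not reported here by name.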

Additional observations from a re-analysis of the deposited data

Results flagged for a closer look

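Among 34 list scores and 48 genes examined for a WT library far from the other 4, 5 stood out, and chance flags about 1 in 20 groups. The granular layer score (mean log2 CPM) was 2.17 in WT 5 against 5.59 to 6.86 in the other WT libraries. The brown fat score was 4.66 in WT 3 against 1.62 to 2.33. The score of JAK and STAT components was 4.97 in WT 4 against 5.22 to 5.29. Lrg1 was at a log2 CPM of 3.49 in WT 3 against 2.51 to 2.76, and both KI libraries were still above it. Reln was at 5.09 in WT 5 against 4.53 to 4.66.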

How the results depend on the processing

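The number of genes called higher was 4, and it was 96 by the DESeq2 Wald test, 22 in a fit of all 21 libraries (Lrg1 and Selp kept, Cebpd and Oasl1 lost), 3 with no filter (Oasl1 lost), 1 (Lrg1) with Y-linked expression as a covariate, and 0 at an adjusted p under 0.05. Leaving out each library in turn gave 0 to 1. The number called lower was 0, and it was 11 by DESeq2 and 1 in the fit of all 21 libraries. With the replicate block 0 genes were called higher; the KI and WT numbers share only 2 pairs, whose deviations correlated at 0.198 and 0.0363, so the numbers were not taken to pair the animals. With 1 library left out, genes higher at an unadjusted p under 0.05 (467) ranged from 235 without KI 2 to 518 without WT 3, and those lower (271) from 185 without KI 2 to 447 without KI 1. Over all alternatives these counts reached 553 higher (no filter) and 470 lower (all 21 libraries). An alternative chosen after seeing the data, without KI 2 and WT 5, gave 0 called higher, 186 higher and 136 lower at that level; another, with the epidermal score as a covariate, called 5 higher, 3 of them shared. The log2 fold change of Krt16 reversed to -0.34 without KI 1 and was 3.10 without KI 2. The cause was not tested. Over all alternatives the adjusted p ranged from 2.19e-13 to 1 for Selp, 7.46e-11 to 1 for Cebpd, 4.85e-12 to 1 for Lrg1 and 2.74e-10 to 1 for Oasl1, lowest by DESeq2 in each case. With 2 KI libraries of unequal epidermal content, differences of a few fold could not be resolved in keratinocyte genes as variable as Krt1 and Lor.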

Other observations

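Some genes of limb position, chosen after their values were seen, were highest in 1 WT library. Hoxd13 was at 33.7 CPM, Pitx1 at 26.4 CPM and Tbx4 at 25.8 CPM in WT 2, the same library in which Hoxd11 was highest. Other genes of this kind did not single it out. Tbx5, a forelimb gene, was at 23.9 CPM in WT 5 and 14.4 CPM in WT 2, Hoxd9 at 21.9 to 32.9 CPM in all 7 libraries, and Hoxd8 was lowest in WT 2 (58.1 CPM). Krt8, a keratin of simple epithelia and Merkel cells, was at 95.8 CPM in WT 2 and 34.7 CPM in WT 5, and at 1.89 to 3.09 CPM in the other 5 libraries. Krt18, its partner, was at 34.6 and 52.1 CPM in WT 2 and WT 5 and at 1.11 to 5.99 CPM elsewhere.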
